A study of Mus musculus with 163 samples.

Results

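The cells described here are the neurons of a single-cell RNA-seq data set of mouse hypothalamus in which little *Agrp* was measured, split by whether the leptin receptor transcript *Lepr* was measured. The cells were selected on the measured values of *Agrp* and *Lepr* themselves: a cell is *Agrp*-low when *Agrp* is below 10 log2RPM, and *Lepr*-positive when *Lepr* is at 5 RPM (reads scaled to a common library total) or more, which is 2.32 on the log2 scale. Of 163 cells, 115 were *Agrp*-low, and these comprised 20 *Lepr*-positive and 95 *Lepr*-negative cells. The other 48 cells were *Agrp*-high.

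The cells came from 7- to 9-week-old male mice of the strain C57/BL6 Tg(Pomc-EGFP)1Low, fed ad libitum, in which green fluorescent protein is driven by the *Pomc* promoter. The mediobasal hypothalamus was dissociated with papain, and GFP-positive cells (MBH Pos) were sorted one by one into lysis buffer. Neither the labels nor the methods name a treatment for these cells. The labels name no animal, plate or batch, so all cells count as 1 sample. No test between the classes was therefore made, every SD below is a spread over cells, and no p-value or standard error is given. The transgene marks cells in which the *Pomc* promoter is or was active, and *Pomc* itself ranged widely among them.

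Leptin is released by fat cells in proportion to fat stores and acts on the arcuate nucleus of the hypothalamus. Its receptor has no kinase of its own: the long form binds the kinase JAK2, which phosphorylates the receptor and the transcription factor STAT3, and STAT3 enters the nucleus and raises transcripts such as *Pomc* and *Socs3*. SOCS3 and the phosphatase PTP1B (*Ptpn1*) then damp the signal. Arcuate POMC neurons lower food intake through melanocortin peptides, AgRP neurons oppose them, and leptin receptors occur on both.

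The *Lepr* gene (ENSMUSG00000057722) lies on chromosome 4 from 101717404 to 101815352 in the GRCm38 build of the deposited file, and the reads were counted over the whole gene, so that the signalling and the truncated receptor forms cannot be told apart. *Lepr* was 2.53 at its lowest, 3.98 at the median and 7.09 log2RPM at its highest in *Lepr*-positive cells, against -0.91, -0.58 and 2.23 log2RPM in *Lepr*-negative cells. The lowest value of the file, -0.91, stands for 0 reads. The last cells inside the limit were at 2.53 and 2.61 log2RPM, and the first outside it at 2.23 and 1.97 log2RPM. In reads, *Lepr*-positive cells had 41, 135 and 1405 *Lepr* reads (lowest, median and highest) and *Lepr*-negative cells 0, 1 and 120. No *Lepr* read was counted in 38 of the 95 *Lepr*-negative cells, while the other 57 had *Lepr* reads below the limit. Among *Lepr*-positive cells the values parted into 11 cells up to 4.01 and 9 cells from 5.21 log2RPM.

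**Figure D1:**
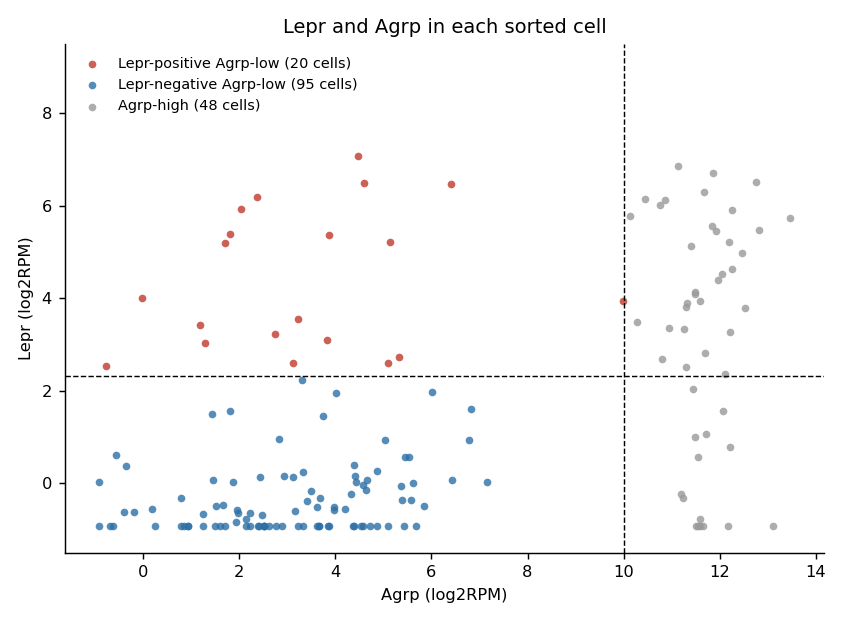
*Lepr* against *Agrp*, both in log2RPM, with 1 point per sorted cell. Dashed lines mark the limits of 2.32 (*Lepr*) and 10 (*Agrp*). The 20 *Lepr*-positive *Agrp*-low cells spread from 2.53 to 7.09 log2RPM, and 1 of them lies at the *Agrp* limit itself.

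The share of *Agrp*-low cells with *Lepr* was 17.4% (20 of 115 cells, exact Clopper-Pearson 95% interval 11 to 25.6%, for counting error only). In *Agrp*-high cells it was 68.8% (33 of 48 cells, 53.7 to 81.3%). The share was 23.5% in the cells numbered 1 to 66 (8 of 34), 14.8% in those numbered 67 to 98 (4 of 27) and 14.8% in the later ones (8 of 54). It depended strongly on the limit: 42.6% of *Agrp*-low cells reached 1 RPM and 67% had any *Lepr* read. One *Lepr*-positive cell had *Agrp* at 9.99 log2RPM, just below the limit, with *Npy* at 11.22 and *Pomc* at 6.26 log2RPM. The nearest *Agrp*-high cell was at 10.12. Apart from that cell, *Agrp* was low in both classes. Its lowest, median and highest values were -0.78, 3.16 and 9.99 log2RPM in *Lepr*-positive cells and -0.91, 3.23 and 7.15 log2RPM in *Lepr*-negative cells.

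Before any gene is compared, 3 differences between the classes have to be stated. *Lepr*-positive cells expressed more genes at 5 RPM or more: 6027, 7415 and 7985 (lowest, median and highest), against 4603, 6816 and 8589 in *Lepr*-negative cells. Depth was alike, with medians of 8.66 M reads in *Lepr*-positive and 8.08 M reads in *Lepr*-negative cells. A larger share of *Lepr*-positive cells had high *Pomc*: 13 of 20 (65.0%, 40.8 to 84.6%) reached 10 log2RPM, against 36 of 95 (37.9%, 28.1 to 48.4%). Turned round, *Lepr* was found in 26.5% of the 49 *Agrp*-low cells with high *Pomc* and in 10.6% of the 66 with lower *Pomc*. It was also found in 30.2% of the 53 cells that express 7000 genes or more and in 6.45% of the 62 others. Finally, 3 or more markers of 1 non-neuronal or pituitary list were expressed in 2 of 20 *Lepr*-positive and 30 of 95 *Lepr*-negative cells. The summed level of the 5 oligodendrocyte markers measured ran from 0.559 to 143 RPM in *Lepr*-positive cells, with a median of 75.1, and from 0.344 to 151849 RPM in *Lepr*-negative cells, with a median of 84.1. That of the 4 pituitary markers ran up to 874 RPM in *Lepr*-positive cells (median 4.96) and up to 17788 RPM in *Lepr*-negative cells (median 3.74). The 3 astrocyte markers summed to 108 RPM at most in *Lepr*-positive cells (median 5.99) and to 1342 RPM at most in *Lepr*-negative cells (median 1.69). No microglial or endothelial list gene is in the file. The part of these differences in what follows was not tested, and values within the cells of 7000 genes or more, and within each level of *Pomc*, are given with the gene lists and for the described list genes whose difference was past 1 or -1 in all cells and not there. The label as neurons was checked on 12 pan-neuronal genes. Among them *Snap25*, *Map2* and *Ncam1* were expressed in all 20 *Lepr*-positive and all 95 *Lepr*-negative cells. *Syt1* had 0 reads in 1 *Lepr*-positive cell, and *Rbfox3* and *Elavl3* had 0 reads in 1 *Lepr*-negative cell each.

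**Figure D2:**
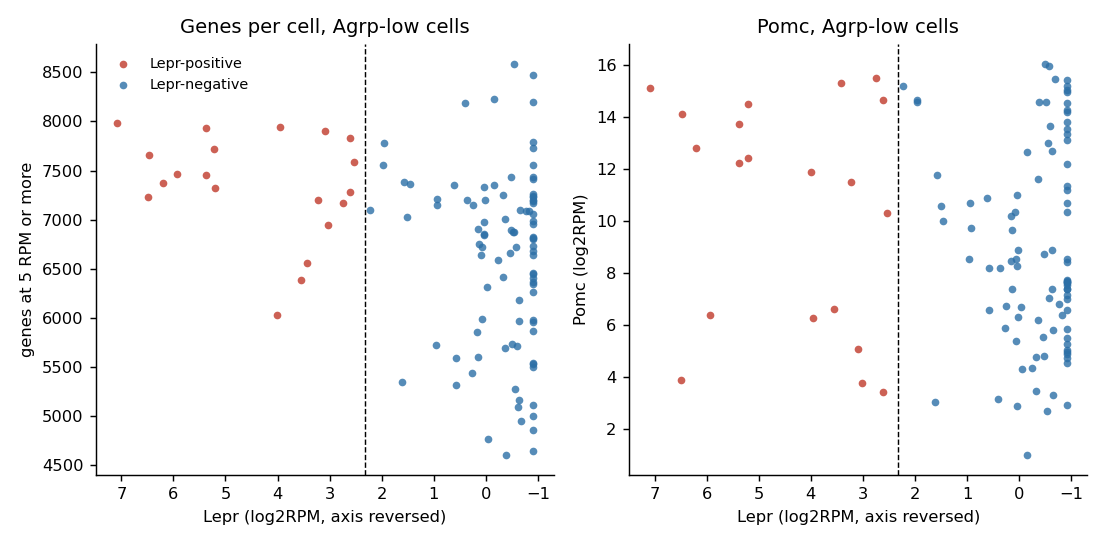
Number of genes at 5 RPM or more (left) and *Pomc* in log2RPM (right) against *Lepr* in log2RPM, with high *Lepr* on the left and 1 point per *Agrp*-low cell. The dashed line is the *Lepr* limit of 2.32. All 20 *Lepr*-positive cells express 6027 genes or more, and 13 of them have *Pomc* at 10 log2RPM or more.

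Across the 12186 genes other than *Lepr*, the mean of *Lepr*-positive cells minus the mean of *Lepr*-negative cells had a median of 0.20 on the log2 scale, so the whole distribution was shifted upwards. A gene is called higher or lower here where this difference is 1 or more, or -1 or less. By that rule 1162 genes were higher (9.54%) and 141 lower (1.16%) in *Lepr*-positive cells. In the cells of 7000 genes or more (16 *Lepr*-positive and 37 *Lepr*-negative) the median difference was 0.02, and 755 genes were higher (6.2%) and 480 lower (3.94%). With high *Pomc* 15.4% of all genes were higher and 3.25% lower, and with lower *Pomc* 18.4% were higher and 5.85% lower, in fewer cells. Of the 1162 genes 486 were again past 1 in cells of 7000 genes or more, and of the 141 genes 84 were again past -1. These counts were 837 and 77 with high *Pomc*, and 760 and 93 with lower *Pomc*. No gene separated the classes: for each of the 12186 genes the values of *Lepr*-positive and *Lepr*-negative cells overlapped. Leaving out each *Lepr*-positive cell in turn left 744 genes higher and 74 lower throughout.

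The gene with the largest difference was *Msn*, which encodes moesin, a linker between the plasma membrane and actin. Its lowest, median and highest values were -0.91, 5.62 and 8.36 log2RPM in *Lepr*-positive cells, against -0.91, -0.17 and 8.80 log2RPM in *Lepr*-negative cells. It was expressed in 13 of 20 and in 16 of 95 cells, and the difference of means was 3.44 (4.32 ± 3.74 and 0.88 ± 2.61, SD over cells). The *Lepr*-positive cells with *Msn* were mostly those with high *Pomc*: 11 of the 13 with *Pomc* at 10 log2RPM or more expressed it, but 2 of the 7 others. In *Lepr*-negative cells these counts were 12 of 36 and 4 of 59. In the cells numbered 67 to 98 the difference was 0.60.

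*Serpina3n* (ENSMUSG00000021091, chromosome 12, 104406729 to 104414329), a secreted inhibitor of serine proteases and known as a transcript that rises under STAT3 activation, came next. It was at -0.21, 7.81 and 9.85 log2RPM (lowest, median and highest) in *Lepr*-positive cells, against -0.60, 3.54 and 10.15 log2RPM in *Lepr*-negative cells. The difference was 3.37 (7.34 ± 2.29 and 3.97 ± 2.78), and 19 of 20 and 65 of 95 cells expressed it. Only 1 *Lepr*-positive cell was below the limit of 5 RPM, while the *Lepr*-negative cells were spread over the whole range. The difference was past 1 in every subset of cells examined: 3.08 in cells of 7000 genes or more, 2.15 in cells with high *Pomc* and 3.90 in those with lower *Pomc*. In *Agrp*-high cells it was 0.15. *Serpina3n* belongs to a family of near-identical copies, among which reads can be shared, so that its level is uncertain to that extent.

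*Spin2c*, a member of the spindlin family of histone readers, was expressed in 17 of 20 *Lepr*-positive and 34 of 95 *Lepr*-negative cells, with a difference of 3.23. That difference was 1.99 in cells of 7000 genes or more, 3.44 with high *Pomc* and 3.01 with lower *Pomc*. In the cells numbered 1 to 66, 67 to 98 and later it was 4.02, 5.27 and 1.51. *Spin2c* too has close copies. *Sept9*, a septin that forms cytoskeletal filaments, differed most by its presence. It was at -0.91, 4.09 and 6.68 log2RPM (lowest, median and highest) in *Lepr*-positive cells and at -0.91, -0.27 and 6.0 log2RPM in *Lepr*-negative cells, of which 17 of 20 and 19 of 95 expressed it. Its difference of 3.07 was nearly the same at both levels of *Pomc* (3.17 and 3.19 at high and lower *Pomc*), while in *Agrp*-high cells the same difference was -0.78.

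*Cartpt*, the precursor of the anorexigenic CART peptides, was at 3.05, 10.07 and 13.84 log2RPM (lowest, median and highest) in *Lepr*-positive cells, against 1.29, 5.09 and 13.94 log2RPM in *Lepr*-negative cells. The difference was 2.77 (9.22 ± 3.33 and 6.45 ± 3.49), and 20 of 20 and 88 of 95 cells expressed it. It was present in most cells of both classes, but the *Lepr*-positive cells sat towards its upper range. With high *Pomc* the means were 10.53 ± 2.19 in 13 *Lepr*-positive cells and 8.36 ± 3.71 in 36 *Lepr*-negative cells, and with lower *Pomc* 6.78 ± 3.85 in 7 and 5.28 ± 2.79 in 59 cells. In cells with both 7000 genes or more and high *Pomc* the difference was 0.61. *Vgf*, another secreted peptide precursor of neurons, differed by 2.38 (18 of 20 and 55 of 95 cells). With high *Pomc* it averaged 7.29 in *Lepr*-positive and 5.62 in *Lepr*-negative cells, and with lower *Pomc* 3.71 and 2.46.

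Among the other named genes, *Hcrtr2* (the type 2 orexin receptor) was expressed in 16 of 20 *Lepr*-positive and 38 of 95 *Lepr*-negative cells, a difference of 2.58. *Gfra2*, a co-receptor for the growth factor neurturin, was expressed in 15 of 20 and 35 of 95 cells, and its difference was 3.83 with lower *Pomc* and 1.51 with high *Pomc*. *Kcna5*, a voltage-gated potassium channel, was narrowly distributed in *Lepr*-positive cells: 0.11, 5.0 and 6.36 log2RPM (lowest, median and highest), with 19 of 20 cells expressing it. In *Lepr*-negative cells it was at -0.91, 1.63 and 7.33 log2RPM, and 43 of 95 cells expressed it. *Arntl2*, a clock transcription factor (difference 2.40), and *Bop1*, a factor of ribosome biogenesis (2.49), were also higher. So were the secreted glycoprotein *Lgals3bp* (2.52), the paraoxonase *Pon2* (2.50), the transcription regulator *Aatf* (2.38) and *Acsf3*, a mitochondrial malonyl-CoA synthetase (2.38). None of the 15 dropped below 1 when any *Lepr*-positive cell was left out, as the rule that named them required.

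**Figure D3:**
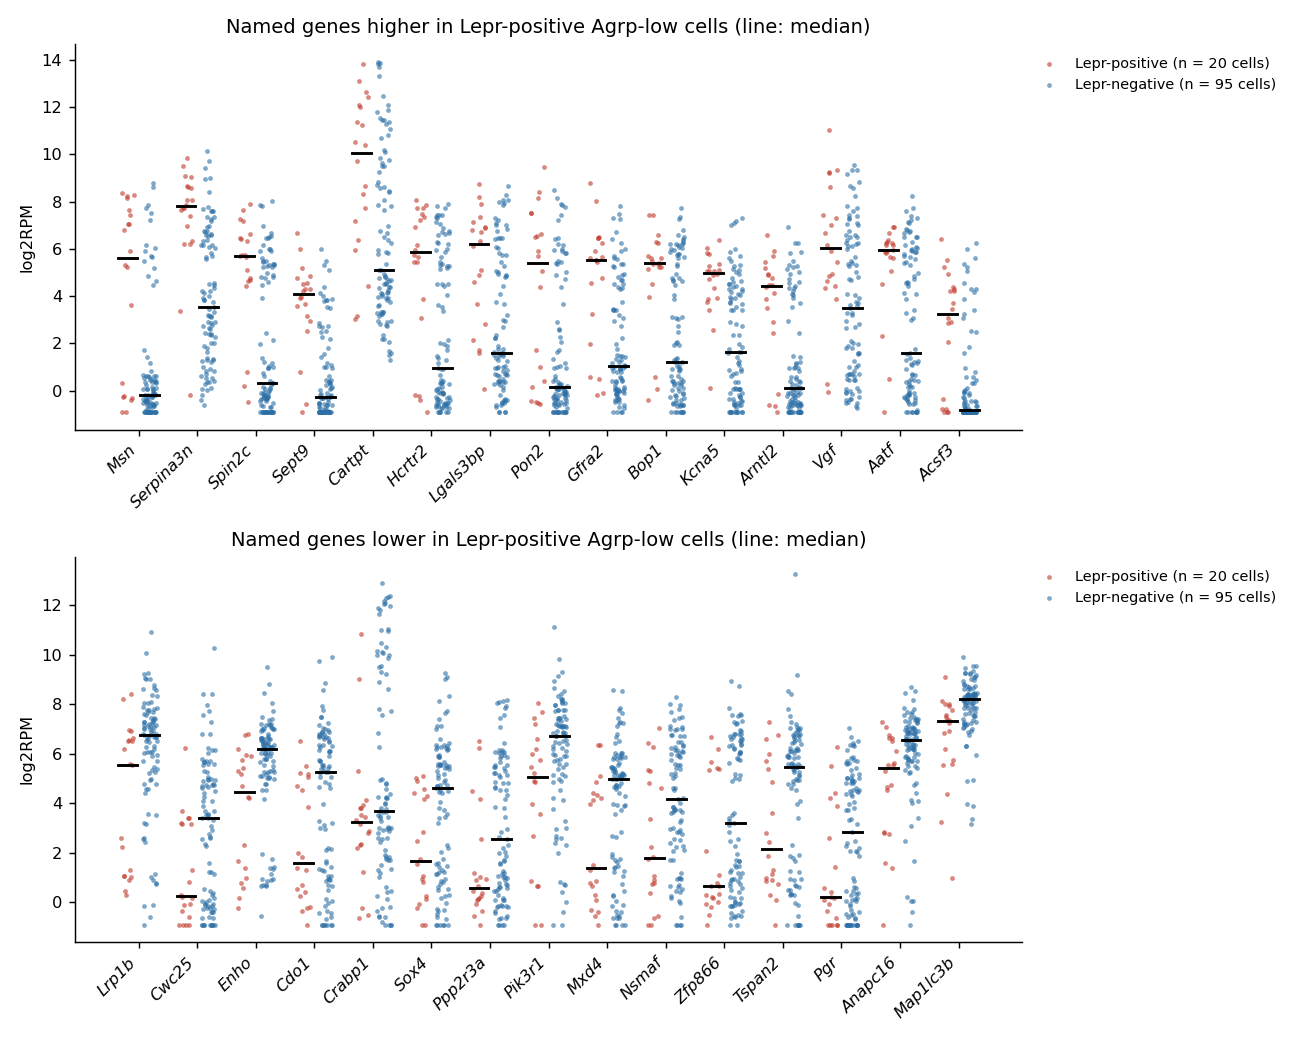
Values in log2RPM of the 15 genes named as higher (top) and the 15 named as lower (bottom) in each *Agrp*-low cell, with the 20 *Lepr*-positive cells left of the 95 *Lepr*-negative cells for each gene. Black lines are medians. The classes overlap for every gene, and for *Serpina3n* 19 of the 20 *Lepr*-positive cells are above the limit of 2.32.

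The genes named as lower had smaller differences. *Lrp1b*, a large receptor of the low-density lipoprotein receptor family, had the largest, at -1.84. Its lowest, median and highest values were 0.29, 5.57 and 8.40 log2RPM in *Lepr*-positive cells and -0.91, 6.75 and 10.92 log2RPM in *Lepr*-negative cells, and 12 of 20 and 86 of 95 cells expressed it. Without the cells that carry markers of another cell type its difference was -1.23, and in the cells numbered 67 to 98 it was 0.14, so its direction did not hold in each range of cell numbers. *Pik3r1*, the p85α regulatory subunit of the phosphoinositide 3-kinase that insulin and leptin both engage, differed by -1.61. It was at -0.91, 5.06 and 8.05 log2RPM in *Lepr*-positive cells (lowest, median and highest), against -0.91, 6.70 and 11.13 log2RPM in *Lepr*-negative cells. Its difference was -1.04 to -1.96 in the 3 ranges of cell numbers, but 1.51 in *Agrp*-high cells.

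*Cdo1*, the enzyme that oxidises cysteine, was expressed in 8 of 20 *Lepr*-positive and 61 of 95 *Lepr*-negative cells, a difference of -1.7. Together with the zinc finger gene *Zfp866* (-1.52, 6 of 20 and 52 of 95 cells) it stayed past -1 in all 8 subsets of cells examined. *Enho*, which encodes the peptide adropin, differed by -1.75 and was expressed in 12 of 20 and 80 of 95 cells. *Pgr*, the progesterone receptor, was expressed in 6 of 20 and 50 of 95 cells, a difference of -1.37. The developmental transcription factor *Sox4* differed by -1.65, but by 1.59 in the other direction in the cells numbered 67 to 98. For *Crabp1*, a retinoic acid binding protein (-1.67), the difference was -0.51 in cells of 7000 genes or more. *Map1lc3b*, which marks autophagosomes, was present in 19 of 20 and 95 of 95 cells and differed by -1.31. The remaining genes of this group were the spliceosome factor *Cwc25* (-1.76), the phosphatase subunit *Ppp2r3a* (-1.63), *Mxd4* (-1.57), a partner of MAX, the adaptor *Nsmaf* (-1.56), the tetraspanin *Tspan2* (-1.47) and *Anapc16* (-1.35), a subunit of the anaphase-promoting complex.

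The proximal promoters of 3 genes are shown because they bear on STAT3 and on cAMP, the signals usually named for these genes: *Socs3* as the classical leptin-induced gene, *Serpina3n* as the named gene that STAT3 is known to raise, and *Cartpt* as the named peptide gene. Each is the 250 bases before the start of transcription, written 5′ to 3′ on the gene's strand (RefSeq, GRCm38.p6), with TTCNNNGAA (the STAT motif) and TGACGTCA (the cAMP response element) in capitals. Both motifs read the same on either strand. The windows are chr11:117969367-117969616 on the minus strand for *Socs3*, chr12:104406458-104406707 on the plus strand for *Serpina3n* and chr13:99900684-99900933 on the minus strand for *Cartpt*.
Socs3: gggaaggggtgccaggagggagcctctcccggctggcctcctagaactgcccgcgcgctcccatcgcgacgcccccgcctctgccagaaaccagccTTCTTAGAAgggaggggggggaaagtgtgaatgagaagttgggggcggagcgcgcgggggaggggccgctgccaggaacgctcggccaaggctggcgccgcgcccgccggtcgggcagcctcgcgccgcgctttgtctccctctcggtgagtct
Serpina3n: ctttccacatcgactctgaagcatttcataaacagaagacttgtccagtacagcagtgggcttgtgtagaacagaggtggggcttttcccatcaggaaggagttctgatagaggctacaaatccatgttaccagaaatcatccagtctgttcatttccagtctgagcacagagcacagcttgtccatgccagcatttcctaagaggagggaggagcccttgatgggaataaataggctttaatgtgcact
Cartpt: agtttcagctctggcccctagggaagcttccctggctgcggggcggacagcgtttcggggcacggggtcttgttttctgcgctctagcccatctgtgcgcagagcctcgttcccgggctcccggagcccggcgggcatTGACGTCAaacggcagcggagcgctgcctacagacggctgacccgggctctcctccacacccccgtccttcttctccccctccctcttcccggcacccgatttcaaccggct
The STAT motif began 154 bases before the start in *Socs3*, and the cAMP response element 112 bases before it in *Cartpt*. Neither was found in the window of *Serpina3n*. Over all 32851 promoters of this length 7.02% held the first and 1.55% the second. Of the 11 promoters matched for the 15 genes named as higher, 1 held the STAT motif (*Acsf3*) and 1 the cAMP response element (*Cartpt*). Of the 14 promoters matched for 11 of the genes named as lower, 1 held the STAT motif (*Anapc16*) and 0 the cAMP response element. A match describes letters and not a bound site.

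Of the leptin receptor signalling list, all 25 genes were measured. In *Lepr*-positive cells 7 were higher (28.0%, against 9.54% of all genes) and 0 lower, with a median difference of 0.50 beside 0.20 for all genes. Among cells of 7000 genes or more 3 of the 25 were higher (12%, against 6.2% of all genes). With high *Pomc* it was also 3 (12%), below the 15.4% of all genes. With lower *Pomc* 11 were higher (44%, against 18.4%) and 1 lower. In each list below, the higher counts in these subsets stand beside the same 6.2%, 15.4% and 18.4% of all genes. Lower counts there stand beside 3.94%, 3.25% and 5.85%. *Stat3*, the transcription factor at the end of the main leptin pathway, was at 4.60, 7.74 and 8.40 log2RPM (lowest, median and highest) in *Lepr*-positive cells and at -0.15, 6.21 and 11.66 log2RPM in *Lepr*-negative cells. All 20 *Lepr*-positive cells expressed it, against 84 of 95, and its difference was 1.69 (7.38 ± 1.06 and 5.69 ± 2.37). The difference was 2.17 in cells with lower *Pomc* and 0.42 in cells with high *Pomc*, where *Stat3* was expressed in all 13 *Lepr*-positive and all 36 *Lepr*-negative cells. *Jak2*, the receptor's kinase, showed the same split, with 1.42 in all cells, 2.78 with lower *Pomc* and 0.51 with high *Pomc*, and was at 0.89 in cells of 7000 genes or more. *Jak2* was expressed in 14 of 20 *Lepr*-positive cells, among them all 7 with lower *Pomc*, and in 40 of 95 *Lepr*-negative cells.

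*Rapgef3* (1.44), which encodes the cAMP sensor EPAC1, *Socs1* (1.22), a feedback inhibitor, and the adaptor exchange factor *Sos1* (1.01) were also past 1, as was *Leprot*. With high *Pomc* *Rapgef3* (0.01), *Socs1* (0.70) and *Leprot* (0.83) were below 1 and *Sos1* (1.77) was not. In cells of 7000 genes or more *Socs1* was at 0.56 and *Sos1* at 0.15, and with lower *Pomc* *Sos1* was at 0.20. *Leprot* (ENSMUSG00000035212, chromosome 4, 101647718 to 101659364), which lies upstream of *Lepr* and whose product limits the receptor at the cell surface, did not overlap the interval of *Lepr*. In the 16 *Lepr*-positive cells that expressed it, it was at 2.68 to 7.34 log2RPM, and in the other 4 it was at -0.91, -0.08, -0.04 and 0.59 log2RPM. In *Lepr*-negative cells 54 of 95 expressed it, and its lowest, median and highest values were -0.91, 4.84 and 8.15 log2RPM. The difference of 1.02 was 0.62 in cells of 7000 genes or more. Of the other brakes on the pathway, *Socs3* was expressed in 5 of 20 *Lepr*-positive and 15 of 95 *Lepr*-negative cells (difference 0.72), and *Ptpn1* in 12 of 20 and 48 of 95 cells (0.33).

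Of 17 transcripts listed as induced by STAT3 or leptin, 14 were measured, of which 4 were higher (28.6%) and 0 lower: *Serpina3n*, *Irf9* (1.7), *Stat3* and *Asb4* (1.58). The list had a median of 0.46, but of -0.13 with high *Pomc*, where 3 were higher (21.4%) and 1 lower. With lower *Pomc* 6 were higher (42.9%), and among cells of 7000 genes or more 5 (35.7%). *Irf9*, a partner of the STAT proteins in interferon signalling, was expressed in 14 of 20 and 41 of 95 cells, with a difference of 0.95 with high *Pomc*. *Asb4*, an arcuate gene for a ubiquitin ligase subunit, was expressed in 20 of 20 and 87 of 95 cells, and its difference was 0.26 in cells of 7000 genes or more. The gp130 receptor *Il6st*, which also signals to STAT3, differed by 1.6 (15 of 20 and 43 of 95 cells), and by 0.88 with high *Pomc*.

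The insulin pathway gave a mixed picture. Of its 21 measured genes 4 were higher (19%) and 1 lower. The higher ones numbered 3 (14.3%) in cells of 7000 genes or more, 4 (19%) with high *Pomc* and 6 (28.6%) with lower *Pomc*. The lower ones numbered 1, 2 and 1 in the same subsets. *Insr* itself was at 0.30, 4.77 and 7.0 log2RPM (lowest, median and highest) in *Lepr*-positive cells and at -0.91, 2.94 and 8.75 log2RPM in *Lepr*-negative cells. It was expressed in 17 of 20 (85%) and 54 of 95 cells (56.8%), a difference of 1.23, which was 0.81 with high *Pomc*. *Irs4*, the insulin receptor substrate of the hypothalamus, differed by 1.63, but by 0.55 in cells of 7000 genes or more. *Tsc1* (1.26), a brake on mTOR, and *Grb10* (1.06), an adaptor that restrains the insulin receptor, were the other higher genes, and *Pik3r1* the lower one. In cells of 7000 genes or more *Tsc1* was at 0.48 and *Grb10* at 0.27, and with lower *Pomc* they were at 0.39 and 0.63. *Foxo1* (0.32) and *Akt1* (-0.03) differed by less than 1.

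The POMC identity and peptide processing list had 22 measured genes, of which 6 were higher (27.3%) and 0 lower. The higher ones numbered 6 (27.3%, against 6.2% of all genes) in cells of 7000 genes or more. With high *Pomc* they numbered 3 (13.6%, below the 15.4% of all genes), and with lower *Pomc* 4 (18.2%, against 18.4%). With lower *Pomc* 2 genes of the list were lower. The list holds *Pomc*, on which these levels were split, so the counts within them are not independent of that split. *Pomc* was at 3.42, 12.08 and 15.49 log2RPM (lowest, median and highest) in *Lepr*-positive cells, against 1.01, 8.27 and 16.06 log2RPM in *Lepr*-negative cells. The difference of means was 1.53 (10.48 ± 4.35 and 8.95 ± 3.84), and both classes held cells of high and of low *Pomc*. Within the cells of high *Pomc* the difference was 0.24, and within those of lower *Pomc* it was -1.32. *Prdm12*, a transcription regulator needed for *Pomc* expression in the mouse, was expressed in 8 of 13 *Lepr*-positive and 12 of 36 *Lepr*-negative cells with high *Pomc*, but in 0 of 7 and 1 of 59 cells with lower *Pomc*. *Dlk1* (1.36), a relative of the Notch ligands, *Pam* (1.33), the enzyme that amidates peptides, and *Tbx3* (1.06), a factor of POMC neuron identity, were higher as well. With high *Pomc* *Dlk1* was at 0.62 and *Pam* at 0.74, and *Tbx3* was at 0.23 in cells of 7000 genes or more and at 0.41 with lower *Pomc*. The cleavage enzymes did not pass: *Pcsk1* differed by 0.88 (18 of 20 and 68 of 95 cells) and *Pcsk2* by -0.10 (14 of 20 and 71 of 95 cells). The secretory granule proteins *Cpe* (-0.16), *Scg5* (-0.08) and *Chgb* (0.29) were expressed in every cell of both classes at similar levels.

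Of 15 measured markers of AgRP neurons 4 were higher (26.7%) and 0 lower, namely *Serpina3n*, *Ghr* (1.97), *Asb4* and *Npy2r* (1.37). Among cells of 7000 genes or more 3 were higher (20%), and with high *Pomc* 5 (33.3%). With lower *Pomc* 9 of the 15 were higher (60%, against 18.4% of all genes), and the list median was 1.09 beside 0.73 in all cells. The list holds *Agrp*, on which the cells were selected, and the median of 1.09 is the value of *Agrp* itself. Neither this count nor this median is therefore independent of the selection. *Npy2r*, a receptor for neuropeptide Y, differed by -0.21 with high *Pomc* and by 3.04 with lower *Pomc*. Of these *Ghr*, the growth hormone receptor, was expressed in 15 of 20 and 33 of 95 cells. Over all *Agrp*-low cells *Agrp* (0.29) and *Npy* (0.17) differed little, which for *Agrp* the limit of 10 log2RPM partly fixes. With lower *Pomc* both were past 1. *Agrp* averaged 4.29 ± 2.85 in 7 *Lepr*-positive and 3.21 ± 1.91 in 59 *Lepr*-negative cells, and *Npy* 5.74 ± 2.79 and 4.55 ± 2.21. The 7 cells include the cell with *Agrp* at 9.99 and *Npy* at 11.22 log2RPM. With high *Pomc* the means were 2.87 and 2.86 for *Agrp* and 3.87 and 4.04 for *Npy*. *Otp*, a transcription factor of AgRP neurons, was found in 2 of 20 and 0 of 95 cells, *Bsx* in 4 of 20 and 11 of 95 cells and the ghrelin receptor *Ghsr* in 3 of 20 and 5 of 95 cells.

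Over all *Agrp*-low cells, fast transmitter genes differed by less than 1. *Gad1*, for the GABA-making enzyme GAD67, was expressed in 19 of 20 *Lepr*-positive and 82 of 95 *Lepr*-negative cells (difference 0.97), and *Slc17a6*, the vesicular glutamate transporter VGLUT2, in 13 of 20 and 60 of 95 cells (0.42). Both were expressed in 12 of 20 *Lepr*-positive and 53 of 95 *Lepr*-negative cells, *Gad1* alone in 7 and 29, *Slc17a6* alone in 1 and 7, and neither in 0 and 6. The small difference of *Slc17a6* was 1.41 with high *Pomc* and -1.42 with lower *Pomc*, where 2 of 7 *Lepr*-positive and 37 of 59 *Lepr*-negative cells expressed it. Only *Gch1* (1.11), an enzyme of cofactor synthesis for monoamines, passed 1 of the 12 transmitter genes measured (8.33%). Its difference was 0.59 in cells of 7000 genes or more, 0.93 with high *Pomc* and 0.54 with lower *Pomc*. In these subsets 0, 3 (25%) and 1 (8.33%) of the 12 genes were higher, and 1, 0 and 1 lower. The 3 with high *Pomc* were *Slc17a6*, *Gad1* and *Gad2*. There *Gad1* averaged 7.24 in *Lepr*-positive and 5.81 in *Lepr*-negative cells, and *Gad2* 7.81 and 6.37.

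Of 54 receptors for hormones and peptides 12 were higher (22.2%) and 2 lower (3.70%). In cells of 7000 genes or more 9 were higher (16.7%) and 3 lower. With high *Pomc* it was 11 (20.4%) and 0, and with lower *Pomc* 16 (29.6%) and 7. After *Hcrtr2* came *Nmur2*, the receptor for neuromedin U, an anorexigenic peptide, with a difference of 2.26 (-0.03 with lower *Pomc*). It was expressed in 7 of 13 *Lepr*-positive and 9 of 36 *Lepr*-negative cells with high *Pomc*, against 0 of 7 and 1 of 59 cells with lower *Pomc*. *Cckar*, the receptor for cholecystokinin, was higher too (8 of 20 and 19 of 95 cells, 1.35), though not in cells of 7000 genes or more (0.63) or with lower *Pomc* (-0.15), and 6 of the 8 *Lepr*-positive cells with *Cckar* also expressed *Nmur2*, against 7 of 19 *Lepr*-negative ones. *Ghr*, *Il6st*, *Gpr83* (1.42), *Npy2r*, *Oxtr* (1.35), the oxytocin receptor, *Insr*, *Npy1r* (1.22) and *Adcyap1r1* (1.19), the receptor for PACAP, were higher too. Among cells of 7000 genes or more *Npy1r* was at 0.95 and *Adcyap1r1* at 0.50, and with lower *Pomc* they were at -0.48 and 0.96. The 2 lower receptors were *Pgr* and *Prlr*, the prolactin receptor (-1.06). *Prlr* was lower with lower *Pomc* (-3.44, expressed in 4 of 7 and 50 of 59 cells) and not with high *Pomc* (0.26). The melanocortin receptor *Mc3r* (8 of 20 and 36 of 95 cells), the serotonin receptor *Htr2c* (7 of 20 and 27 of 95) and *Glp1r* (2 of 20 and 10 of 95), the receptor for glucagon-like peptide 1, were all within 0.42 of 0.

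Among 17 other peptides and growth factors 4 were higher (23.5%) and 0 lower. These were *Vgf*, *Bdnf* (1.64), the neurotrophin linked to satiety, *Pdyn* (1.49), the dynorphin precursor, and *Adcyap1* (1.04), the PACAP precursor. *Adcyap1* was at 0.96 with high *Pomc*. The higher ones numbered 3 (17.6%) in cells of 7000 genes or more, 4 (23.5%) with high *Pomc* and 6 (35.3%) with lower *Pomc*. The lower ones numbered 1, 0 and 3 in the same subsets. *Bdnf* was found in 9 of 20 and 21 of 95 cells, and its difference was 2.95 with high *Pomc* and 0.23 with lower *Pomc*. *Pdyn* differed by 1.69 with high *Pomc* by -0.88 with lower *Pomc* and by 0.36 in cells of 7000 genes or more. Among 36 ion channel genes 8 were higher (22.2%) and 0 lower. In cells of 7000 genes or more 6 were higher (16.7%) and 1 lower. With high *Pomc* it was 9 (25%) and 1, and with lower *Pomc* 8 (22.2%) and 2. *Abcc8*, which encodes the sulfonylurea receptor SUR1 of the ATP-sensitive potassium channel, was expressed in 7 of 20 and 5 of 95 cells (1.77). *Kcnma1* (1.67) is a potassium channel and *Kcnj6* (1.10) a G protein-gated one, and both were higher. *Nalcn* (1.28), the sodium leak channel, was at 5.35 log2RPM or more in all 20 *Lepr*-positive cells and at -0.35 to 8.95 log2RPM in *Lepr*-negative cells. *Scn9a* (1.13), *Cacna1h* (1.16) and *Trpc7* (1.34) were higher as well. In cells of 7000 genes or more *Kcnj6* (0.96), *Trpc7* (0.99) and *Scn9a* (0.07) were below 1. With high *Pomc* *Nalcn* (0.75) and *Cacna1h* (0.55) were, and with lower *Pomc* *Kcnj6* (0.88), *Trpc7* (0.79) and *Scn9a* (0.51). *Trpc5*, a cation channel that leptin opens in POMC neurons, differed by -0.81 (11 of 20 and 62 of 95 cells).

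Transcription factors of arcuate neurons did not move as a group: 4 of 34 were higher (11.8%) and 2 lower (5.88%), with a median of -0.01. *Six3* (1.67), *Prdm12*, *Sox2* (1.35) and *Tbx3* were higher, and *Nfix* (-1.45) and *Nfia* (-1.09), which are widely expressed in glia, lower. Among cells of 7000 genes or more *Nfix* was at -0.09, *Nfia* at -0.70 and *Tbx3* at 0.23. In these cells 4 of the list were higher (11.8%) and 1 lower. With high *Pomc* *Six3* was at 0.56 and *Nfia* at -0.83, and 4 were higher (11.8%) and 5 lower. With lower *Pomc* *Sox2* was at -0.23, *Prdm12* at -0.35 and *Nfix* at -0.75, and 6 were higher (17.6%) and 4 lower. *Nfia* was expressed in 0 of 20 and 13 of 95 cells, and a count of 0 in 20 cells allows a share of up to 15% (3 counts of the total), as 0 of 7 allows 42.9% and 0 of 95 allows 3.16%. Immediate early genes, which report recent activity and also respond to dissociation, had a median of -0.35, and of 18 only *Ier2* passed (-1.37). In cells of 7000 genes or more that median was 0.33 and *Ier2* differed by -0.19. There 4 of the 18 were higher (22.2%) and 0 lower. The median was -0.71 with high *Pomc*, where 1 was higher (5.56%) and 5 lower. With lower *Pomc* it was -0.20, and 1 was higher (5.56%) and 2 lower. Of 12 pan-neuronal genes 2 were higher (16.7%), *Rbfox3* (1.09) and *Elavl4* (1.03), with a median of 0.48. Among cells of 7000 genes or more the median was 0.02, and 0 were higher and 1 lower, with *Rbfox3* at 0.26 and *Elavl4* at 0.41. With high *Pomc* it was 0.87 and 6 of the 12 were higher, and with lower *Pomc* it was -0.01 and 0 were higher, with *Rbfox3* at 0.63 and *Elavl4* at 0.52. None of the 18 measured glial and pituitary genes differed by 1 or more, and the list medians ran from -0.55 (2 genes of oligodendrocyte precursors) to 0.60 (4 genes of tanycytes and ependymal cells).

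**Figure D4:**
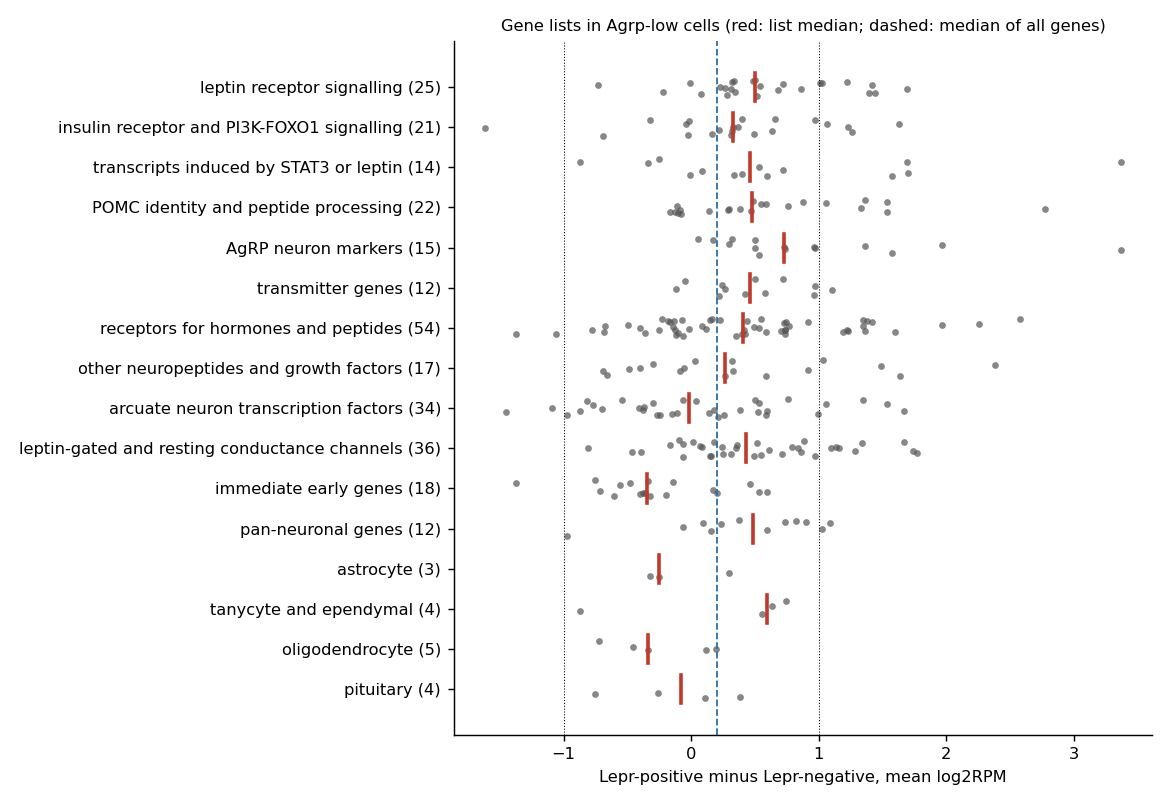
Difference of means (*Lepr*-positive minus *Lepr*-negative *Agrp*-low cells, log2RPM) for each gene of the lists with 3 or more measured genes, 1 point per gene, with the number of genes in brackets. Red bars are list medians, the dashed line is the median of all genes (0.20), and dotted lines mark 1 and -1. The plotted list medians lie between -0.35 and 0.73.

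The subsets that follow are part of the cells in which the 30 named genes were chosen. Staying past the limit there is therefore no independent check. The 15 genes named as higher all stayed past 1 among the cells of 7000 genes or more and with high *Pomc*. With lower *Pomc* 14 of the 15 did, and *Pon2* was at 0.89. Their differences ran from 1.35 (*Hcrtr2*) to 4.05 (*Msn*) in cells of 7000 genes or more, from 1.13 (*Lgals3bp*) to 4.06 (*Msn*) with high *Pomc*, and up to 3.90 (*Serpina3n*) with lower *Pomc*, and *Arntl2* was at 1.39 in cells of 7000 genes or more. Of the 15 named as lower, 11 stayed past -1 in each of these subsets. Those that did not were *Cwc25* (-0.88), *Crabp1* (-0.51), *Anapc16* (-0.77) and *Map1lc3b* (-0.80) in cells of 7000 genes or more. With high *Pomc* they were *Crabp1* (-0.67), *Sox4* (-0.53), *Tspan2* (-0.30) and *Pgr* (-0.96), and with lower *Pomc* *Enho* (-0.41), *Nsmaf* (-0.40), *Anapc16* (-0.69) and *Map1lc3b* (-0.97). With both 7000 genes or more and high *Pomc*, 12 of the named higher and 9 of the named lower genes stayed past the limit. Where cells with at least 1 RPM of *Lepr* counted as positive, these numbers were 10 and 1, and where any *Lepr* read did, 2 and 0. In the 3 ranges of cell numbers, 11 of the named higher and 4 of the named lower genes were past the limit each time. Over all genes 159 were higher and 18 lower in each of the 3 ranges, and 50 and 5 in all 8 subsets examined. Of these 50 and 5 genes 8 and 2 were named genes.

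Set beside the same comparison in *Agrp*-high cells (33 *Lepr*-positive and 15 *Lepr*-negative), few of the named genes were past 1 or -1 the same way. There, 1537 genes were higher (12.6%) and 312 lower (2.56%), and the median of all genes was 0.18. Of the 15 genes named as higher in *Agrp*-low cells, 3 were past 1 in *Agrp*-high cells as well: *Aatf* (1.35), *Pon2* (1.25) and *Bop1* (1.03). None of the 15 named as lower was past -1, and 4 of them were past 1: *Pik3r1* (1.51), *Cwc25* (1.49), *Nsmaf* (1.24) and *Zfp866* (1.17). The sign was the same for 10 of the 15 named higher and 4 of the 15 named lower genes. Of the 1162 higher genes 757 (65.1%) were above 0 in *Agrp*-high cells, against 62.5% of all genes, and of the 141 lower genes 52 (36.9%) were below 0, against 37.5% of all genes. Among the 1162 higher and 141 lower genes, 200 (17.2%) and 8 (5.67%) were past the limit in the same direction in *Agrp*-high cells. *Stat3* differed by 0.15 there, where it was expressed in 33 of 33 *Lepr*-positive and 15 of 15 *Lepr*-negative cells. The mean level of *Serpina3n* was 10.22 ± 0.57 log2RPM over the 48 *Agrp*-high cells. Whether the 2 comparisons differ could not be tested with 1 sample.

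**Figure D5:**
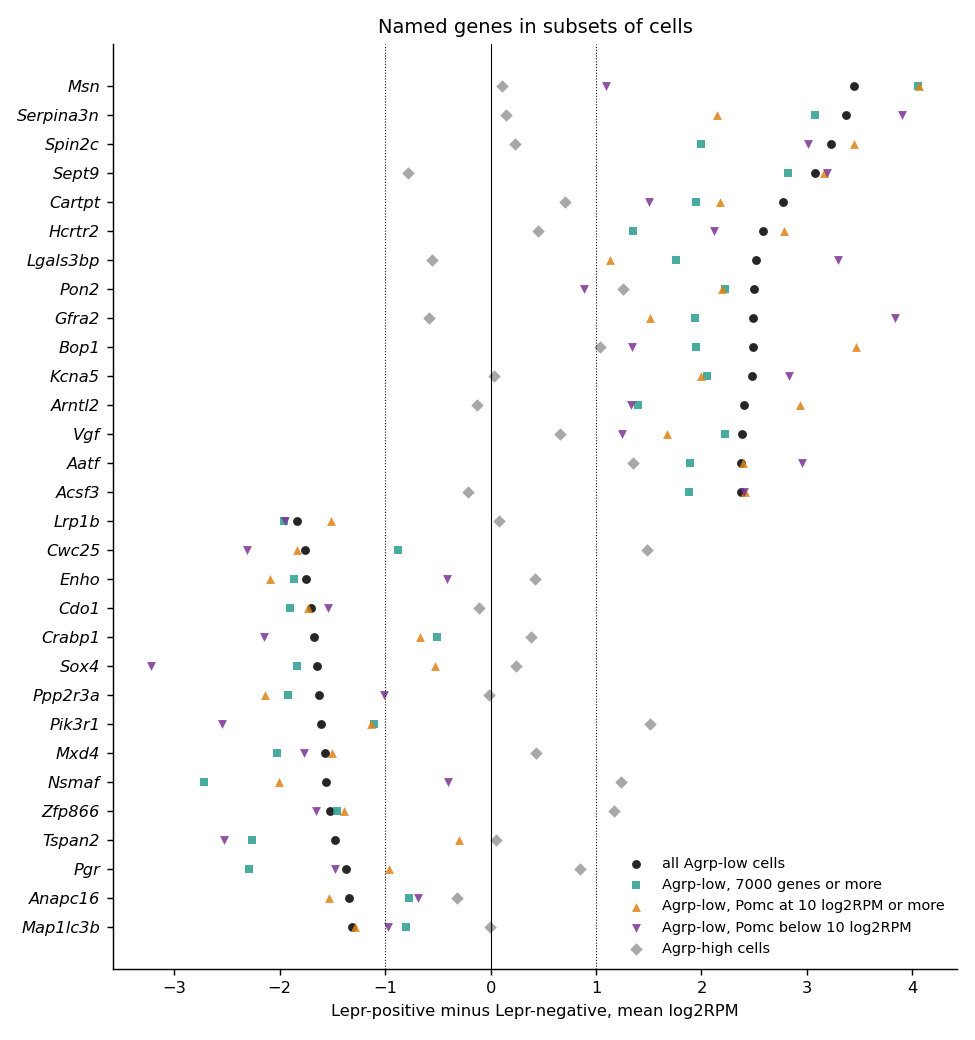
Difference of means (*Lepr*-positive minus *Lepr*-negative, log2RPM) of the 30 named genes in all *Agrp*-low cells, in 3 subsets of them and in *Agrp*-high cells. Dotted lines mark 1 and -1. The 15 genes at the top lie at or above 0.89 in all 3 subsets of *Agrp*-low cells, while in *Agrp*-high cells 3 of them pass 1.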

How the data were processed

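Single-cell libraries were prepared with SMART-Seq v4 and Nextera XT and sequenced as single-end reads on an Illumina HiSeq instrument. Sorting used a pulse-width gate for single cells, and no doublet caller was run. The log2 values (log2RPM) were deposited by the authors after demultiplexing with CASAVA 1.7, alignment to GRCm38 with TopHat2 2.0.11, counting with Cufflinks 2.2.1 and normalization with edgeR and limma (versions not given in the sources used here). Whether these values carry the batch correction used for clustering is not stated. They cover 12187 genes and include a prior of 0.532 RPM. Single-end reads from kits that do not mark strand cannot separate overlapping genes.

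Depth was recovered from the steps between low values, and 99.3% of the values equal to 1 to 20 reads were whole to a tolerance of 0.1. It ran from 1.46 to 41.9 M reads per cell, and shallow cells are the least certain at the limit of 5 RPM. The highest correlation between 2 cells was 0.784, and no 2 columns were alike within sampling noise. Classes were compared by differences of mean log2RPM, shares carry exact 95% intervals for counting error only, and procedures were tested on simulated data (Python 3.11.15, numpy 2.4.6, pandas 2.3.3, scipy 1.17.1). Named genes are the 15 largest differences in each direction among genes expressed at 5 RPM in 50% or more of the higher class and past 1 whichever *Lepr*-positive cell is left out, with list members as examples. Members and lists were chosen with earlier results of these data known. Alternatives were other limits, pseudocounts, filters, scalings, medians, thinning to 3 M reads and subsets of cells. Those on genes per cell and *Pomc* were chosen after seeing the data. The columns of all 163 cells were used. A few list members are counted in their lists and not reported here by name.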

Additional observations from a re-analysis of the deposited data

How the results depend on the processing

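No paired analysis was possible because each cell has a number of its own and all cells form 1 sample. Leaving out each *Lepr*-positive cell in turn, the higher genes numbered 1139 to 1337 and the lower genes 123 to 178. The share of *Agrp*-low cells with *Lepr* was then 16.7% by arithmetic, whichever cell was left out, and so is no check. The share was 42.6% at a limit of 1 RPM, 67% with any *Lepr* read, 30.2% in cells of 7000 genes or more, 26.5% with *Pomc* at 10 log2RPM or more, 10.6% below it, and 39.3% with both 7000 genes and high *Pomc*. Against 1162 higher and 141 lower genes, there were 715 and 30 at 1 RPM, 661 higher with any *Lepr* read, 313 lower at 10 RPM, and 263 lower with *Agrp* below 5 log2RPM. Medians in place of means gave 1917 and 253. A pseudocount of 1 RPM gave 86 lower genes, and one of 5 RPM gave 170 and 22. The cells numbered 1 to 66 gave 1990 and 864, those numbered 67 to 98 gave 2802 and 1760, and the later ones 2238 and 776. Cells with at least 6027 genes gave 630 and 304, those with 7000 or more 755 and 480, high *Pomc* 1874 and 396, lower *Pomc* 2241 and 713, and both together 830 lower genes. Several of these settings hold fewer cells. The cause of these changes was not tested.

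With any *Lepr* read counted as positive the difference turned round for *Cartpt* (-0.51), *Sept9* (-0.27), *Vgf* (-0.28), *Pon2* (-0.014), *Cwc25* (1.42), *Zfp866* (0.76), *Ppp2r3a* (0.56), *Mxd4* (0.36), *Sox4* (0.34), *Pik3r1* (0.33), *Cdo1* (0.32), *Enho* (0.22), *Crabp1* (0.19) and *Tspan2* (0.10). At 1 RPM it did so for *Ppp2r3a* (0.29), *Cdo1* (0.19) and *Zfp866* (0.11). In the cells numbered 67 to 98 *Sox4* (1.59) and *Lrp1b* (0.14) turned round, and *Crabp1* (0.10) did so in cells of 7000 genes with high *Pomc*. These 20 were the sign changes among 1230 values of the 30 named genes. Many of these values come from the leave-one-out runs, in which the naming rule let no named gene change sign. The count of 20 is therefore no measure of stability.

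Of 655 list medians 59 changed sign. The immediate early genes were at 0.54 with any *Lepr* read, 0.18 at 1 RPM, 0.16 in cells of at least 6027 genes, 0.33 in cells of 7000 or more, 0.56 in those with high *Pomc* too, and 0.46 in the cells numbered 1 to 66. POMC identity was at -0.27 in the cells numbered 67 to 98. The 3 astrocyte genes were at -1.83 (cells 1 to 66), 1.36 (67 to 98), 0.44 (high *Pomc*) and 0.14 (without cells with markers of another cell type), where the oligodendrocyte list was at 0.20. The tanycyte list was at -0.17 with 7000 genes and high *Pomc*, and at -0.18 in the later cells. Thinning left out 0 *Lepr*-positive and 5 *Lepr*-negative cells.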

Other observations

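The 50 genes that were higher in all 8 subsets of *Agrp*-low cells were chosen after their values were seen, and they are given as values only. Besides the named genes they held *Ezr* (ezrin, a relative of moesin), with a difference of 2.2 and expression in 15 of 20 *Lepr*-positive and 41 of 95 *Lepr*-negative cells. The adhesion molecule *Cdh13* (2.18) was expressed in 19 of 20 and 69 of 95 cells, and *Rrs1* (2.10), like *Bop1* a factor of ribosome biogenesis, in 18 of 20 and 45 of 95 cells. The aldehyde dehydrogenases *Aldh6a1* (2.03), *Aldh7a1* (1.80) and *Aldh5a1* (1.62) were also among them, while in *Agrp*-high cells their differences were 0.46, -0.94 and -1.04. The muscarinic receptor gene *Chrm5* (2.04) was expressed in 8 of 20 and 5 of 95 cells. The 5 lower genes included *Lamp5* (-2.05), expressed in 2 of 20 and 33 of 95 cells, and *Tekt2* (-2.09), expressed in 1 of 20 and 31 of 95 cells, which fall outside the named genes because fewer than 50% of *Lepr*-negative cells expressed them.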
